A study of Mus musculus with 2 samples.

Results

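The genes described here encode the non-collagenous extracellular matrix of the air pouch membrane, and 55 of them were followed in pooled membranes that had or had not been exposed to monosodium urate (MSU) crystals. They were chosen by name, in groups for microfibrils and elastic fibres (20 genes), small leucine-rich proteoglycans (9), matricellular proteins (10), basement membrane (8) and other adhesive or matrix-associated proteins (8). A probe set, the group of short oligonucleotides that reads a transcript, was used where the platform annotation assigns it to a single gene. By this rule 52 of the 55 genes had 102 probe sets, out of 18193 genes and 45101 probe sets in all. Fbn1 and Efemp2 were not analysed here, and neither was Loxl2, whose probe sets are annotated to a further gene as well.

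The MSU pool held membrane RNA of 3 female Balb/C mice, 6 to 8 weeks old, whose pouches had received 2 mg MSU crystals in 1 ml phosphate-buffered saline (PBS). The control pool came from 3 mice of the same strain, sex and age given 1 ml PBS alone. All had an air-filled pouch on the back, a cavity whose lining serves as a model of synovium, and the membranes were taken 9 h after injection. Each pool was hybridized to 1 array, so there were no replicates, no test between conditions could be run, and every value below describes a single pool.

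Elastic fibres consist of a core of cross-linked elastin within a mantle of fibrillin microfibrils, to which microfibril-associated proteins, fibulins, emilins and latent TGF-β binding proteins attach. Small leucine-rich proteoglycans such as decorin bind collagen fibrils and limit their width. Matricellular proteins such as the thrombospondins sit in the matrix but act mainly on cells, and basement membranes are sheets of laminin, nidogen, perlecan and type IV collagen under epithelium and endothelium and around muscle and fat cells. In loose connective tissue fibroblasts make most of these proteins.

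Values are linear signals, scaled by the authors to a common trimmed mean, and each ratio is the MSU signal over the control signal. A fold is given where both signals reached a detection floor, 74.1 on the MSU array and 64.6 on the control array, and a gene with a fold or with a bound against a floor is called measured. Where a gene had several probe sets, the one of highest mean log2 signal stands for it. Signals of different genes come from different probes and were not compared with each other. As a yardstick of disagreement between probe sets, different probe sets for 1 gene gave log2 ratios with a pooled SD of 0.33, taken over 4002 genes. All were read from the same 2 arrays, so this spread holds no variation between mice, labellings or arrays. A shift shared by all probe sets of an array does not show in it. All 18 hybridization spike-in probe sets were brighter on the MSU array, and scaling on them would lower every log2 ratio by 0.46 and move the median of all genes with a fold to -0.51, in place of -0.05. Neutrophil markers were higher in the MSU pool, with 9 of 10 measured genes past 2-fold. Fibroblast markers were measured for 12 of 14 listed genes and none was past 2-fold, but 8 of the 12 had ratios below 1, with a median log2 ratio of -0.37. The summed signal of the 13 fibroblast markers with a probe set was 19302 in the MSU pool and 21395 in the control pool. Sums of markers, here and below, take in genes below a floor, and the brightest probe sets weigh most in them. The part of fibroblast number in the ratios of the matrix genes was not tested.

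Most of the matrix genes differed by less than 1.5-fold between the pools, and few were past 2-fold. Of the 51 measured members, 1 (Thbs1) was higher by 2-fold or more, against 3.7% of all 11155 measured genes, and 3 (Mfap4, Aspn and Mfap5) were lower by 2-fold or more, against 4.29% of all measured genes. Both counts lie near these background shares. Under scaling on the spike-ins 1 measured member was higher and 16 (31.4%) were lower, against 1.77% higher and 15.8% lower among the 11282 genes measured at that scaling. For the 50 members that had a fold, the log2 ratios had a median of -0.19 and quartiles of -0.65 and 0.07, whereas the 10045 genes with a fold had a median of -0.05 and quartiles of -0.36 and 0.23. The ratios of 31 of the 50 (62%) lay within 1.5-fold, as did 77.6% of all genes with a fold. A further 11 (22%) were 1.5- to 2-fold lower and 4 (8%) were 1.5- to 2-fold higher, against 9.95% and 4.76% of all genes with a fold. The signals were measured in whole membranes, so fewer cells of a type and less RNA per cell cannot be told apart.

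**Figure D1:**
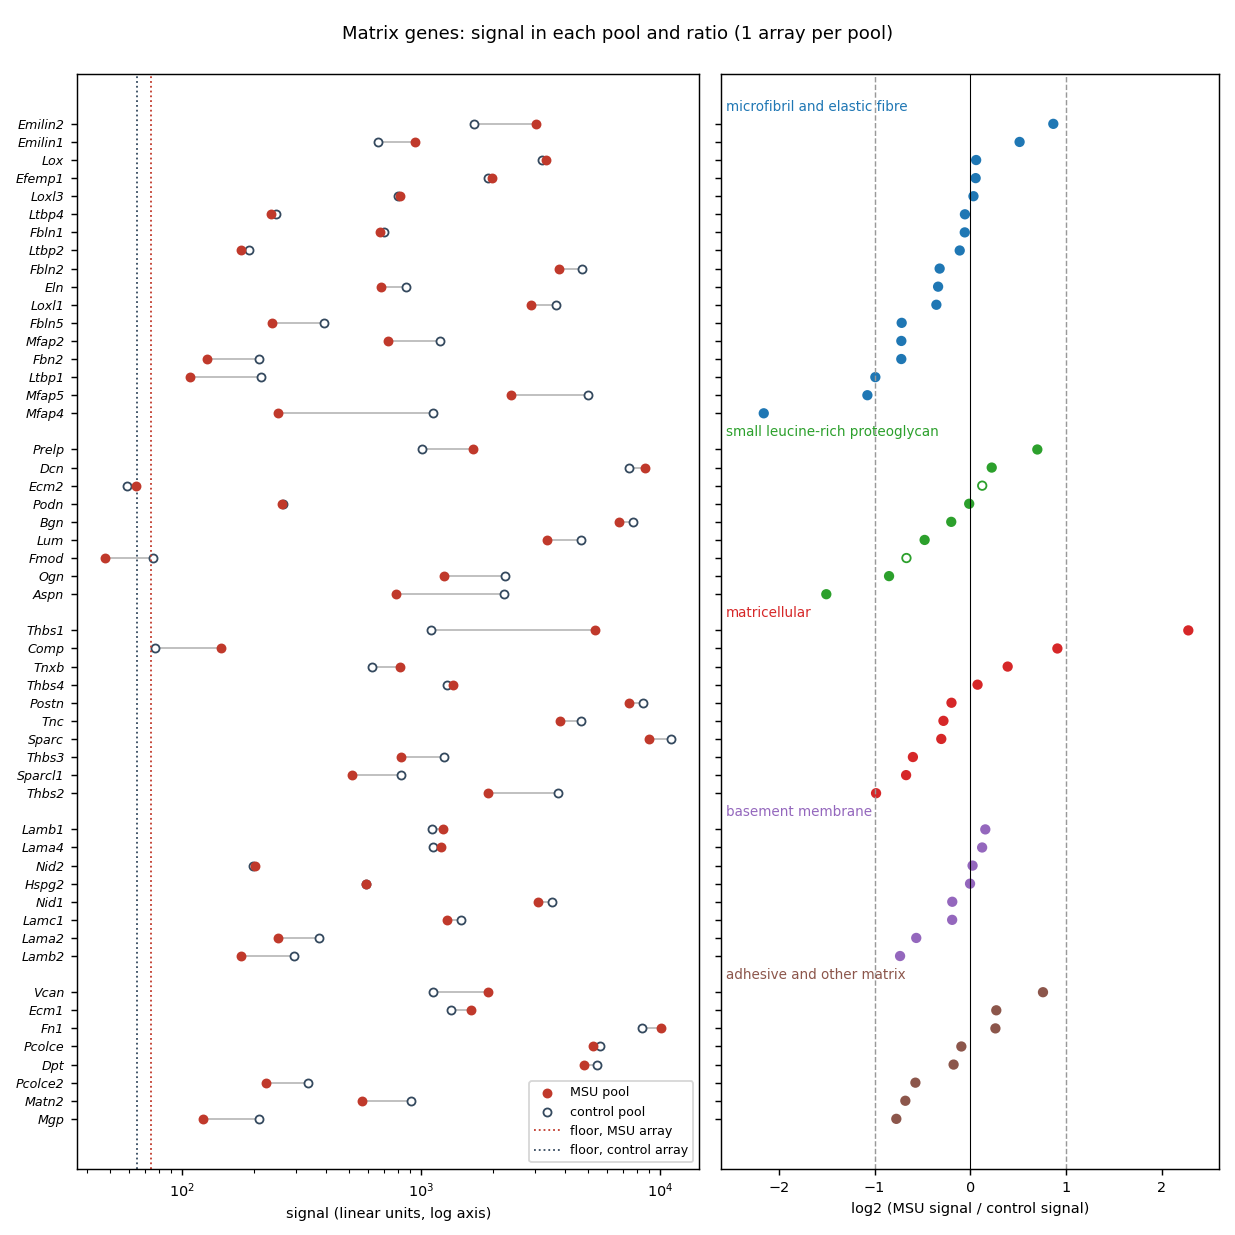
Left, signal of each matrix gene with a probe set (linear units on a log axis) in the MSU pool (filled red) and in the control pool (open), 1 array per pool, with dotted lines at the detection floors of 74.1 and 64.6. Right, the log2 ratio of the same probe sets coloured by group, with dashed lines at 2-fold and open points for Fmod and Ecm2, which have no fold; Thbs1 lies farthest to the right at 2.28 and Mfap4 farthest to the left at -2.16.

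The thrombospondins, which are large secreted glycoproteins that bind cells, growth factors and other matrix proteins, went in opposite directions. Thbs1, which is released by platelets and made by many cell types and can activate latent TGF-β, had a signal of 5331 in the MSU pool and 1101 in the control pool, 4.84-fold higher. Its other probe set had signals of 3480 and 531 in the MSU and control pools, 6.55-fold higher. Thbs1 ranked 45 from the top among the 10045 genes with a fold. Thbs2, its closest relative by domain structure and an inhibitor of vessel growth, had signals of 1895 in the MSU pool and 3751 in the control pool, 1.98-fold lower. The other probe sets of Thbs2 gave larger differences. One had 654 in the MSU pool and 2569 in the control pool, 3.93-fold lower, and one had 545 and 1706, 3.13-fold lower. Thus both probe sets of Thbs1 were higher and all 3 of Thbs2 were lower.

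The thrombospondins that form pentamers were more varied. Comp, known from cartilage and tendon, had signals of 145 in the MSU pool and 77.5 in the control pool, which is 1.88-fold higher, although the control signal lay just above the floor. Thbs3 had 824 in the MSU pool and 1250 in the control pool, 1.52-fold lower. Thbs4 had 1353 and 1285, a log2 ratio of 0.07 that turns to -0.38 under scaling on the spike-ins.

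Of the remaining matricellular genes none was past 2-fold. Sparcl1, a counter-adhesive glycoprotein of vessels and other tissues, had a signal of 516 in the MSU pool and 822 in the control pool, 1.59-fold lower. Its relative Sparc, which binds collagen, had 8987 and 11096, a log2 ratio of -0.30, and its further probe sets gave -0.26 and -0.27. Periostin (Postn), which promotes collagen cross-linking, had 7367 in the MSU pool and 8448 in the control pool, a log2 ratio of -0.20. Tenascin C (Tnc), a protein of healing and inflamed tissue, had 3816 and 4638, a log2 ratio of -0.28, but 0.05 on its other probe set. Tenascin X (Tnxb), which stabilizes collagen in skin, had 814 in the MSU pool and 621 in the control pool. Its log2 ratio was 0.39, and -0.07 under scaling on the spike-ins. The median over the 10 matricellular genes was -0.24.

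In a further list of 19 matricellular and related genes, 15 were measured, with 1 past 2-fold upward and 2 past it downward. The shares over all measured genes were 3.7% and 4.29%, so counts this small say little about the list. Ccn2 (connective tissue growth factor), a TGF-β target that promotes matrix synthesis, had signals of 809 in the MSU pool and 2190 in the control pool, 2.71-fold lower. Srpx2 was 2.13-fold lower, short of 2-fold with the floors as pseudocount (log2 -0.89). Ccn4, with 269 in the MSU pool and 538 in the control pool, was just short of 2-fold lower. It was past 2-fold under median scaling (log2 -1.07), under scaling on the spike-ins (-1.45) and with the median over probe sets (-1.02). Abi3bp, which binds cells and matrix, had 1586 in the MSU pool and 647 in the control pool, 2.45-fold higher, or 0.84 on the log2 scale under scaling on the spike-ins. The list's median log2 ratio was -0.37 over 14 genes with a fold, the lowest among the 5 further lists of matrix genes, whose other medians ran from -0.09 to 0.13.

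All 5 measured genes for elastin, fibrillin-2 and the microfibril-associated proteins had ratios below 1, with a median log2 ratio of -0.72, and 2 of them were past 2-fold. Of all 10045 genes with a fold 5521 had ratios below 1, and 4.29% of all measured genes were at least 2-fold lower. In the whole microfibril and elastic fibre group 2 of 17 measured genes were at least 2-fold lower. Mfap4, which binds elastin and collagen and is prominent around vessels and airways, had a signal of 252 in the MSU pool and 1125 in the control pool, 4.46-fold lower. It ranked 16 from the bottom among the 10045 genes with a fold. Mfap5 (MAGP-2) had 2366 and 4986, 2.11-fold lower, and its other probe set had 1348 in the MSU pool and 2836 in the control pool, 2.10-fold lower. The related Mfap2 (MAGP-1) had 726 in the MSU pool and 1198 in the control pool, 1.65-fold lower, and 1.17-fold lower on its other probe set. Fibrillin-2 (Fbn2), the fibrillin of developing tissue, had 127 and 210, also 1.65-fold lower, and 1.22-fold lower on its other probe set. Elastin itself (Eln) had 682 in the MSU pool and 862 in the control pool, a log2 ratio of -0.34, with its other probe set below the floor on both arrays. Every one of these genes kept a ratio below 1 under all 8 processing alternatives. Several of these could not have turned it, since median and spike-in scaling lower every ratio and a changed or absent floor leaves it as it is.

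Smooth muscle and pericyte markers moved in the same direction as Mfap4. Of 10 such genes 8 were measured and 3 were at least 2-fold lower (Acta2, Tagln and Myl9), against 4.29% of all measured genes. The summed signal of all 10 was 3464 in the MSU pool and 7822 in the control pool. Myh11 and Cnn1 lay below the floor in both pools. The part of these cells in the Mfap4 ratio was not tested.

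Among the proteins that join microfibrils to elastin, the fibulins and emilins differed. Fibulin-5 (Fbln5), which is needed for elastic fibre assembly, had a signal of 239 in the MSU pool and 393 in the control pool, 1.64-fold lower. Fbln2 had 3754 and 4690, a log2 ratio of -0.32. Fbln1 and Efemp1 (fibulin-3) had log2 ratios of -0.06 and 0.05, too small for a direction across the alternatives. The emilins, glycoproteins at the interface of elastin and microfibrils, were both above 1. Emilin2 had 3017 in the MSU pool and 1656 in the control pool, 1.82-fold higher, and Emilin1 had 947 and 663, 1.43-fold higher, or 1.10-fold on its other probe set. Both kept a ratio above 1 under all 8 alternatives, although that of Emilin1 fell to a log2 value of 0.06 under scaling on the spike-ins.

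The lysyl oxidases, which cross-link elastin and collagen, varied by gene. Lox had signals of 3329 in the MSU pool and 3194 in the control pool, a log2 ratio of 0.06, and Loxl3 had 818 and 800, a log2 ratio of 0.03. Both turn below 0 under median scaling and scaling on the spike-ins. Loxl1, the family member tied to elastin, had 2873 in the MSU pool and 3676 in the control pool, 1.28-fold lower. Its other probe set had 89.2 and 259, 2.90-fold lower, so that the probe sets of Loxl1 disagreed in size by 1.18 on the log2 scale, the widest gap among the 23 members with several probe sets above the floor. In the list of further elastic fibre genes, Loxl4 had 294 in the MSU pool and 123 in the control pool, 2.39-fold higher. It was the 1 gene past 2-fold among 10 measured there, and its log2 ratio was 0.89 with the median over probe sets, 0.97 with the floors as pseudocount and 0.80 under scaling on the spike-ins, all short of 2-fold.

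Latent TGF-β binding proteins hold TGF-β in the matrix on microfibrils. Ltbp1 had a signal of 108 in the MSU pool and 215 in the control pool, 1.99-fold lower, with the MSU signal near the floor. Adding the floors to the signals as a pseudocount gave a log2 ratio of -0.62 for Ltbp1 in place of -0.99. Ltbp2 and Ltbp4 had log2 ratios of -0.11 and -0.06. Over the 17 microfibril and elastic fibre genes with a fold the median was -0.32, or -0.11 with the median over probe sets. The medians of the 5 member groups ran from -0.32 to -0.10. Their order changed under quantile normalization, with the median over probe sets, with a floor at rank 15000 and with bounds counted as values.

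The small leucine-rich proteoglycans divided by gene. Aspn (asporin), which binds collagen and TGF-β, had a signal of 782 in the MSU pool and 2220 in the control pool, 2.84-fold lower, and 513 and 2017, 3.93-fold lower, on its other probe set. Ogn (osteoglycin, or mimecan), a regulator of collagen fibrils, had 1244 in the MSU pool and 2241 in the control pool, 1.80-fold lower, and 231 and 733, 3.18-fold lower, on its other probe set. In contrast Prelp, which anchors basement membrane to connective tissue, had 1642 in the MSU pool and 1012 in the control pool, 1.62-fold higher, and 376 and 239, 1.57-fold higher, on its other probe set. All probe sets of these genes with a fold had the same direction within each gene.

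The other proteoglycans of this family had smaller ratios. Decorin (Dcn) had a signal of 8587 in the MSU pool and 7359 in the control pool, a log2 ratio of 0.22 that turns to -0.23 under scaling on the spike-ins. Biglycan (Bgn), which can also signal through Toll-like receptors when soluble, had 6693 and 7688, a log2 ratio of -0.20, and -0.16 and -0.22 on its other probe sets. Lumican (Lum) had 3350 in the MSU pool and 4666 in the control pool, 1.39-fold lower. Podn had 262 and 264, a log2 ratio of -0.01. Fibromodulin (Fmod) had 47.9 in the MSU pool, below the floor, and 76.0 in the control pool, a bound of at least 1.03-fold lower, and a further probe set was at least 1.61-fold lower, with 119 in the control pool. Ecm2 lay below the floor in both pools. The median over the 7 proteoglycan genes with a fold was -0.20.

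Several of these genes are neighbours in the mouse genome. In the RefSeq annotation of GRCm38.p6, Ecm2, Aspn, Omd and Ogn are consecutive protein-coding genes on chromosome 13, and the lowest ratios of the group were those of Aspn, 2.84-fold lower, and Ogn, 1.80-fold lower, while Ecm2 and Omd did not reach the floor in either pool. Prelp and Fmod stand next to each other on chromosome 1, with Prelp higher and Fmod below the floor in the MSU pool. Dcn and Lum are adjacent on chromosome 10 and had log2 ratios of 0.22 and -0.48.

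Promoters are shown for the neighbours Aspn and Ogn and for Thbs2, each with a probe set at least 2-fold lower, and for Prelp and Vcan, which were above 1.5-fold higher. Each sequence runs 5′ to 3′ from 250 bases before to 50 bases after the annotated start, as RefSeq gives it for GRCm38.p6. Capitals mark, on either strand, the TATA box (letters TATAAA), the AP-1 consensus (letters TGANTCA), the GC box (letters GGGCGG), the CCAAT box and the CArG box, and where marked motifs overlap their capitals merge.
Aspn, chr13:49544193-49544492, plus strand: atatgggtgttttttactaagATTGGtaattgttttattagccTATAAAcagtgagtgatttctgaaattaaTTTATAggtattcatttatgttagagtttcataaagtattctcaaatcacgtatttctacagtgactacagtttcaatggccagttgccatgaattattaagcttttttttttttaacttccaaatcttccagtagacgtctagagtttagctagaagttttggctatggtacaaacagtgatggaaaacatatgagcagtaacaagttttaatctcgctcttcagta
Ogn, chr13:49607765-49608064, plus strand: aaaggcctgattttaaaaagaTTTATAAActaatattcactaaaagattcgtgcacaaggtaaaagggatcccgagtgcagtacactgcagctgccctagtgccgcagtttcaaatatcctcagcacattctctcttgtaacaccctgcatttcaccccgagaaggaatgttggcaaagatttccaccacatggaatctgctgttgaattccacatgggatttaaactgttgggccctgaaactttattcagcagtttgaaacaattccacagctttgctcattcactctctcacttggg
Thbs2, chr17:14694213-14694512, minus strand: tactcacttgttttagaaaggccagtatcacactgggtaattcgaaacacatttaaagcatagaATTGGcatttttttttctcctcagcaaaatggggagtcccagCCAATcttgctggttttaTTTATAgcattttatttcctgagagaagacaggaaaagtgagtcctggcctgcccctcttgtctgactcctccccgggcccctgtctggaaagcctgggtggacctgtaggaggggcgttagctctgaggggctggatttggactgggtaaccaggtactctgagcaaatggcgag
Vcan, chr13:89742463-89742762, minus strand: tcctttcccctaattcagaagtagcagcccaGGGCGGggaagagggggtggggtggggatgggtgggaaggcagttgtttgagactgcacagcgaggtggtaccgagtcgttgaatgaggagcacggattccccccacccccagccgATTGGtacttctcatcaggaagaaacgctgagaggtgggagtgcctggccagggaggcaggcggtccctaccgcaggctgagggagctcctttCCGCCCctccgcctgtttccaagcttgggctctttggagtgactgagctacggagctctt
Prelp, chr1:133921352-133921651, minus strand: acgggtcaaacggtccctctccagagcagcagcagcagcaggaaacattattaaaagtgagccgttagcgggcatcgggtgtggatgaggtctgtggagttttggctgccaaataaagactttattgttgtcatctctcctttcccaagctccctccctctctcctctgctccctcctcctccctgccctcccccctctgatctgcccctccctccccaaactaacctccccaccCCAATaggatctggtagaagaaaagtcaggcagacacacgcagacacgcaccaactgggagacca

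The TATAAA letters were found in the windows of Aspn, Ogn and Thbs2, starting 126 to 229 bases before the annotated start, and not in those of Vcan and Prelp. The CCAAT letters were found in the windows of Aspn, Thbs2, Vcan and Prelp, and not in that of Ogn. Thbs1, Mfap4 and Mfap5 had no promoter entry. The GC box letters were found only in the Vcan window, with GC contents of 31.0% for Aspn, 42.3% for Ogn, 48.3% for Thbs2, 61.0% for Vcan and 55.3% for Prelp. No window of these 5 held the AP-1 or CArG letters. Of all 32851 promoter windows 13.6% held TATAAA, 35.7% GGGCGG, 37.4% CCAAT, 7.81% TGANTCA and 1.63% the CArG box. Among the 48 windows of the 36 members with an entry, 8 held TATAAA, 29 GGGCGG, 14 CCAAT, 3 TGANTCA and 1 the CArG box. These matches describe letters and are not binding sites, and the genes were chosen after their ratios were known.

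**Figure D2:**
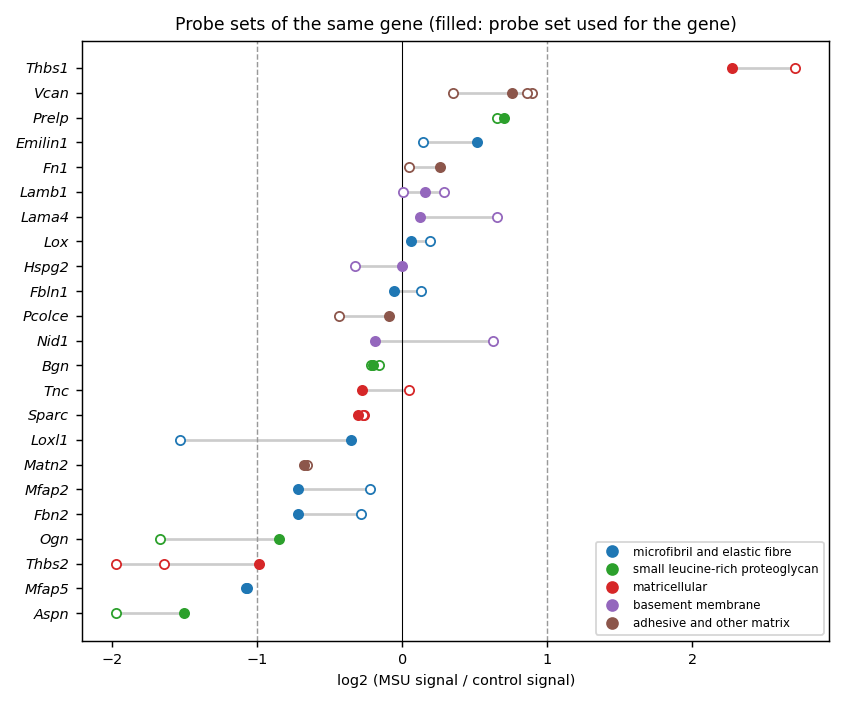
Log2 ratio (x axis) of every probe set above the floor on both arrays for the 23 members with at least 2 of them, with the probe set used for the gene filled and the others open, coloured by group. For 20 of the 23 genes all probe sets lie on the same side of 0, and Fbln1, Tnc and Nid1 are the exceptions.

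Over the 23 members with several probe sets above the floor, the pooled SD between probe sets was 0.32 on the log2 scale. In a count added after the values were seen, which took any probe set with a fold, 6 of 50 members (12%) were past 2-fold downward, namely Mfap4, Mfap5, Aspn, Ogn, Thbs2 and Loxl1, against 5.01% of the 10056 genes with such a probe set. By the same count 1 member, Thbs1, was past 2-fold upward, against 4.73% of these genes.

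The basement membrane genes differed little, with no gene past 2-fold among 8 measured and a median log2 ratio of -0.10. The laminins are trimers of an α, a β and a γ chain, and the chains varied. Lama2, the α chain of muscle and nerve basement membrane, had a signal of 253 in the MSU pool and 374 in the control pool, 1.48-fold lower. Lamb2, a β chain found at the neuromuscular junction and in vessels, had 177 and 294, 1.66-fold lower. Lama4, the α chain of endothelium and fat cells, had 1215 in the MSU pool and 1116 in the control pool, a log2 ratio of 0.12, and 0.66 on its other probe set. Lamb1 had 1238 and 1111, a log2 ratio of 0.16, and Lamc1, the common γ chain, had 1286 and 1467, a log2 ratio of -0.19. The ratios of Lama4 and Lamb1 turn below 0 under scaling on the spike-ins. Those of Lama2 and Lamb2 stayed below 0 under all 8 alternatives, but most of these could not have turned them. Median and spike-in scaling lower every ratio, and a changed or absent floor leaves it as it is. With 1 probe set each, the rules on probe sets also returned the same value. Only quantile normalization and the floors as pseudocount moved them toward 0.

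Nidogens and perlecan link laminin to type IV collagen. Nid1 had signals of 3078 in the MSU pool and 3510 in the control pool, a log2 ratio of -0.19, but 1280 and 829 on its other probe set, a log2 ratio of 0.63, so its probe sets disagreed in direction. Nid2 had 202 and 199, and perlecan (Hspg2) had 588 in the MSU pool and 590 in the control pool, with log2 ratios of 0.02 and -0.00. Of 20 further basement membrane genes 8 were measured and none was past 2-fold. Among them Col4a1 had a log2 ratio of 0.17 and Npnt the highest, 0.35, and both turn below 0 when scaled on the spike-ins. Col4a2 had -0.13, and Col15a1, of the basement membrane zone of muscle and vessels, the lowest at -0.70. Most of the epithelial laminin chains listed, among them Lama1, Lama3 and Lamb3, lay below the floor in both pools.

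Markers of the cells that basement membrane surrounds differed between the pools to different degrees. All 14 skeletal muscle markers were measured, 7 of them past 2-fold downward and none past it upward, and their summed signal was 30501 in the MSU pool, against 50715 without crystals. The adipocyte list had 9 of 12 markers measured and 7 past 2-fold downward, with a summed signal of 9862 in the MSU pool and 26951 in the control pool. Pparg did not reach the floor in either pool. Of 9 epithelial markers 7 were measured, and 3 (Krt8, Krt18 and Epcam) were past 2-fold downward, with sums of 612 in the MSU pool and 1772 in the control pool and Krt14 and Krt1 under the floor in both. For endothelium 11 of 12 markers were measured and none was past 2-fold, with sums of 1872 in the MSU pool and 2047 in the control pool and Tie1 below the floor in both. The paper saw no adipocytes or skeletal muscle in sections of dissected membranes. Resistin and dystrophin mRNA nevertheless varied between single control membranes, for which the paper proposes small remnants of fat and muscle. RNA was pooled to correct for this. Whether such remnants differed between the pools was not tested, nor was the part of muscle, fat, epithelium or vessels in the laminin ratios.

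**Figure D3:**
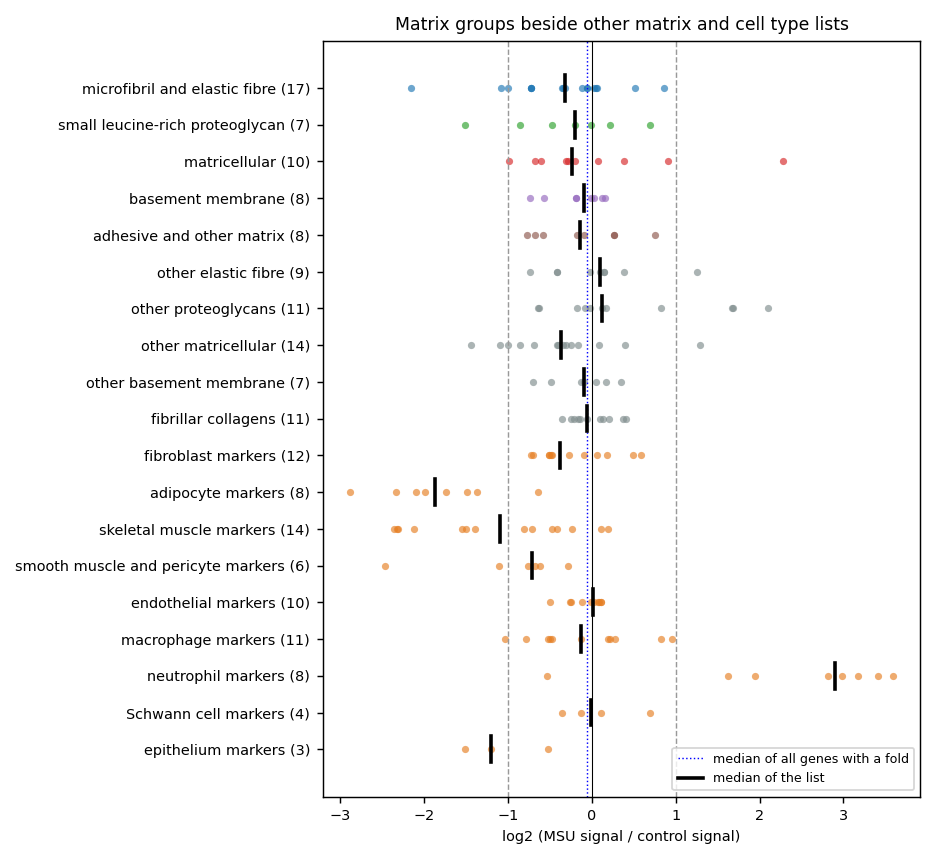
Log2 ratio (x axis) of each gene with a fold in the 5 member groups (coloured), in 5 lists of further matrix genes (grey) and in 9 lists of cell type markers (orange), with the number of genes in brackets, black bars at list medians, dashed lines at 2-fold and a dotted line at the median of all genes, -0.05. Medians of the member groups lie between -0.32 and -0.10, that of the adipocyte markers at -1.86 and that of the neutrophil markers at 2.90.

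None of the 8 adhesive and other matrix genes was past 2-fold, and 3 had ratios above 1 and 5 below 1. With 3.7% of all measured genes at least 2-fold higher and 4.29% lower, this does not set the group apart. Versican (Vcan), which binds hyaluronan and accumulates in inflamed tissue, had a signal of 1904 in the MSU pool and 1126 in the control pool, 1.69-fold higher. Its other probe sets with a fold were 1.86-, 1.81- and 1.28-fold higher, so all 4 were above 1. Fibronectin (Fn1), the adhesive protein to which integrins bind, had 10057 in the MSU pool and 8391 in the control pool, a log2 ratio of 0.26, and 0.04 on its other probe set. Ecm1 had 1610 and 1335, a log2 ratio of 0.27. Both Fn1 and Ecm1 turn below 0 under scaling on the spike-ins, to -0.20 and -0.19, whereas Vcan stayed above 0 at 0.30.

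Matrix Gla protein (Mgp), an inhibitor of calcification, had a signal of 123 in the MSU pool and 210 in the control pool, 1.71-fold lower. Matn2, a filament-forming adaptor, had 568 and 910, 1.60-fold lower, and 1.58-fold lower on its other probe set. Pcolce2, which enhances procollagen cleavage, had 225 in the MSU pool and 335 in the control pool, 1.49-fold lower. Its paralogue Pcolce had 5232 and 5586, a log2 ratio of -0.09, and -0.44 on its other probe set. Dermatopontin (Dpt), which binds decorin and collagen, had 4799 in the MSU pool and 5419 in the control pool, a log2 ratio of -0.18. The group's median was -0.13.

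Proteoglycans that were not members included higher ratios than any member but Thbs1. Of 27 further proteoglycan and link protein genes, some of them leucine-rich, 15 were measured, with 3 past 2-fold upward and none past it downward. The shares over all measured genes were 3.7% and 4.29%. Syndecan-4 (Sdc4), a cell-surface receptor for fibronectin, had a signal of 2497 in the MSU pool and 582 in the control pool, 4.29-fold higher. Serglycin (Srgn), the granule proteoglycan of leukocytes, had 7343 and 2285, 3.21-fold higher, and lubricin (Prg4), which lines joints, had 4187 in the MSU pool and 1317 in the control pool, 3.18-fold higher. The lowest log2 ratio with a fold was -0.64, for Sdc2, which was past 2-fold lower with the median over probe sets (-1.14). The 11 fibrillar and associated collagen genes set beside the members stayed between log2 ratios of -0.36 (Col12a1) and 0.41 (Col1a1). Col3a1 had 15371 in the MSU pool and 11909 in the control pool, a log2 ratio of 0.37, and both Col1a1 and Col3a1 turn below 0 under scaling on the spike-ins, to -0.05 and -0.09.

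**Figure D4:**
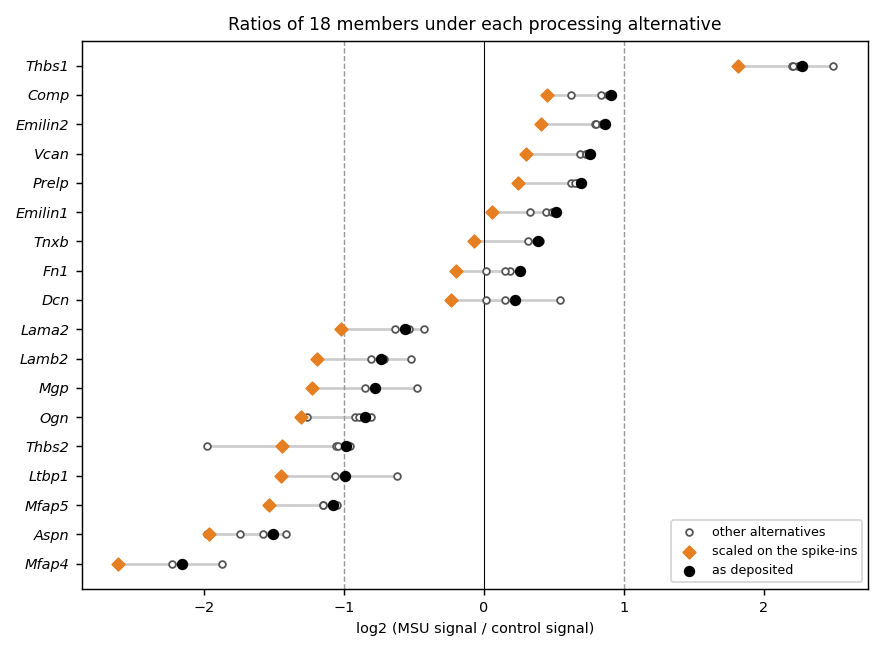
Log2 ratio (x axis) of 18 members as deposited (black), scaled on the spike-ins (orange diamonds) and under the other alternatives (open circles). Thbs1 lies between 1.82 and 2.49 and Mfap4 between -2.61 and -1.87 throughout, while Tnxb, Fn1 and Dcn cross 0 under scaling on the spike-ins.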

How the data were processed

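Pooled membrane RNA was measured on 2 Affymetrix Mo430_2 arrays. The authors deposited 1 linear signal intensity for each probe set. The submitters' processing notes name MAS5, with the version not given in the sources used here, and the trimmed mean, leaving out 2% of probe sets at each end, is equal on both arrays. They were used as deposited. The sample records and the paper differ in the volume of air and the day of injection.

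Probe sets annotated to 1 gene (34958) were used, those with several (932) or none listed (9211) and 64 control probe sets were not. Symbols were updated with the RefSeq table of GRCm38.p6. Each floor was placed so that the probe sets at or above it were as many as the study counted as detected on that array. Folds are MSU over control. Where 1 signal lay below its floor, the other was set against that floor as a bound. Counts used a fixed 2-fold. No test was run, since each condition had 1 array, and the number of arrays limits the precision.

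The members, the lists and the promoters were chosen with earlier results of these data known. Genes named were those past 2-fold, the 3 highest and 3 lowest ratios and the 2 highest signals of each group, and members below a floor. In the further lists these were the highest and lowest ratios and the highest signal. Others were added after their values were seen. Alternatives were median, quantile and spike-in scaling, a floor at rank 15000, no floor, the floors as pseudocount, the median over probe sets, no _x_at or _s_at probe sets, sizes of 1.5- and 3-fold, and bounds counted as values. The computation was tested on simulated data. Python 3.11.15, pandas 2.3.3 and matplotlib 3.10.9 were used.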

Additional observations from a re-analysis of the deposited data

How the results depend on the processing

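Members at least 2-fold lower numbered 5 under median scaling and 5 with the median over probe sets, and 16 under scaling on the spike-ins, in place of 3. The share over all genes was not counted under median scaling or with the median over probe sets. Counting any probe set, chosen after seeing the data, gave 6 lower. At a size of 3-fold there was 1 and at 1.5-fold there were 14, and at 1.5-fold 5 were higher in place of 1. Scaling on the spike-ins, which shifts all ratios alike, put the median log2 ratio at -0.65 over all members, -0.78 for microfibril and elastic fibre, -0.66 for small leucine-rich proteoglycan, -0.70 for matricellular, -0.55 for basement membrane and -0.59 for the other matrix genes. Of 74 counts and medians under the other alternatives, spike-in scaling included, 62 stayed within 1.5 times or within 0.33 (log2) of the values reported. The 0.33 is the SD between probe sets of single genes and is wider than the range of the group medians, -0.32 to -0.10. A shift of the microfibril and elastic fibre median from -0.32 to -0.11 thus counts as unmoved, and the 62 do not show that the group medians were stable. Of 395 values of single members under the alternatives 57 moved by more than 0.33, 7 of them outside spike-in scaling. No 2-fold difference changed direction, but only Thbs1, Mfap4, Mfap5 and Aspn had one. Most alternatives could not have turned these 2-fold differences. The scaling shifts were smaller than 2-fold, a changed or absent floor leaves a ratio as it is, and their probe sets shared a direction within each gene. No paired analysis was possible because each condition had 1 array. Signals near the floor (Comp, Ltbp1, Fmod, Mgp, Fbn2) are the least certain.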
